A study of Mus musculus with 8 samples.

Results

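Glucocorticoid receptor (GR) binding was examined at 10 genes of the hepatic acute-phase response, Saa1, Saa2, Orm1, Orm2, Hp, Hpx, Lcn2, Crp, Apcs and Hamp, in mouse liver. They were chosen by name as secreted plasma proteins of the liver, with earlier results of these data known. They are 10 of 21911 protein-coding genes in the annotation used. Peaks that overlapped between the 6 lists were joined, which gave 51431 GR sites, and a site was assigned to a gene when its centre lay within 50 kb of the gene start. By this rule the 10 genes, which lie in 8 loci, held 77 GR sites and 25 of the 8068 regions bound by the forkhead factor FOXO1.

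Groups of male C57BL/6J mice were compared, 3 in all, each with 2 GR ChIP-seq libraries (chromatin immunoprecipitation followed by sequencing). Control mice (ctrl.) were on night restricted feeding. A second group was on caloric restriction (cal. res.), with intake lowered stepwise and food given at the onset of the night. The third group (CORT) had night restricted feeding plus corticosterone, the main glucocorticoid of mice, injected daily into the peritoneum for a week, and the labels name no vehicle injection for ctrl. Livers were collected at the end of the light phase, when the hormone peaks. FOXO1 was mapped in cal. res. only, as 1 list from 2 libraries that were merged before peaks were called, so it carries no replicate spread. Whole liver was used, so hepatocytes and other liver cells are mixed, and with no RNA in these data the tissue was not checked against marker genes. Library names followed 2 styles, with ctrl. 2 and both cal. res. libraries in one (series A) and ctrl. 1 and both CORT libraries in the other (series B). Whether the styles mark a batch is not stated in the labels, and series and group cannot be told apart for cal. res. against CORT.

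The acute-phase response is the change in liver secretion that follows infection or injury. Interleukin-6 acts through STAT3, and interleukin-1 through NF-kB and C/EBP factors, on hepatocyte genes that glucocorticoids often enhance. GR can contact DNA directly, through a palindromic element or one arm of it, or can sit beside STAT and C/EBP factors on their own elements. Some reactants bind lipid or heme, some bind iron or its carriers, and some opsonise debris. Plasma proteins that fall during the response, such as albumin and transthyretin, are called negative reactants.

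The lists differed in length, which affects every count below. Those of ctrl. held 41400 and 13667 peaks, those of cal. res. 24915 and 20444, and those of CORT 33451 and 48060. Covered sequence added up to 22461659 and 5697346 bp for ctrl., 9951618 and 9131353 bp for cal. res., and 16785021 and 25754843 bp for CORT. The longest list, CORT 2, covered more than the others, but CORT 1 covered less sequence than ctrl. 1. Read depth was not analysed here.

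Sequences under the summits are shown first, because the letters around them differ between the members. Each window holds 120 bases around the highest GR summit of a site, from the mm10 plus strand, and capitals mark motif letters. Only windows with such letters are shown. The windows at the top-ranked sites of Crp, Apcs, Hamp, the Saa pair and Hpx held none of the motifs searched. The same was true of the next site of Crp and of Lcn2. The first pair are the promoter sites of Orm1 and Orm2, at chr4:63344406-63344525 and chr4:63362287-63362406. They encode orosomucoid, also called alpha-1-acid glycoprotein, a drug-binding plasma protein. Capitals mark the C/EBP letters TTGCNNAA and, in Orm2, the GR half-site AGAACA.
Orm1 promoter: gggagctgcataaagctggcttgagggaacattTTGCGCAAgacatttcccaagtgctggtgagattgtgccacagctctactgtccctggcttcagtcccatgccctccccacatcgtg
Orm2 promoter: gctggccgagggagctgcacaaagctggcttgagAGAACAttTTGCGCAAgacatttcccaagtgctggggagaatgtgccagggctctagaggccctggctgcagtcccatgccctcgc

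Both windows hold the palindrome TTGCGCAA, 23 and 14 bp before the summit. In Orm2 the half-site stands 2 bases before it. The hexamer at the same place in Orm1 differs by A1G, counted from the first base of the Orm2 hexamer (Orm2 has A, Orm1 has G), so Orm1 does not hold the half-site letters there. The 60 bases after the palindrome differ at 8 positions between the genes.

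The next windows hold STAT letters, TTCNNNGAA, in capitals. They come from the promoter of Hamp (hepcidin, the peptide hormone that blocks iron export) at chr7:30944095-30944214, from a site at -20.83 kb from the Lcn2 start (a minus sign marks upstream) at chr2:32409272-32409391, from a site at -3.26 kb from Hpx at chr7:105603215-105603334 and from a site at -37.38 kb from Apcs at chr1:172932376-172932495.
Hamp promoter: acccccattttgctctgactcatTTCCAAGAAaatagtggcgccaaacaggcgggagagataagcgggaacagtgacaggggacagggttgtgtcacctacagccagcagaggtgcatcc
Lcn2 upstream: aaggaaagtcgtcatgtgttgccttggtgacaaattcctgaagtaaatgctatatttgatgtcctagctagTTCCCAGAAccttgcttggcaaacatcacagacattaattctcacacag
Hpx upstream: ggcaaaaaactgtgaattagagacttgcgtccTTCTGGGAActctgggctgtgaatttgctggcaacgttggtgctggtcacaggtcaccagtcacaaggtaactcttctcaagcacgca
Apcs upstream: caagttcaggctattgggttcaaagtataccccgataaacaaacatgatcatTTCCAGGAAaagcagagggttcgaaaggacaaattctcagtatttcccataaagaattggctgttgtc

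The last windows show C/EBP letters at the Saa genes and at Hp. Saa1 and Saa2 encode serum amyloid A, a lipoprotein-bound reactant, and Hp encodes haptoglobin, which captures free hemoglobin. The Saa1 upstream window is chr7:46745925-46746044 and the Hp upstream window chr8:109585764-109585883, which also holds the GR half-site. The Saa1 and Saa2 promoter stretches run from 250 to 121 bases before the start in RefSeq's promoter table and are written along the gene. They lie at chr7:46743101-46743230 (minus strand) and chr7:46751583-46751712 (plus strand) of GRCm38.p6, the assembly behind mm10. For Saa1, the RefSeq gene span used below starts further upstream, at chr7:46743181, which is inside the printed stretch.
Saa1 upstream: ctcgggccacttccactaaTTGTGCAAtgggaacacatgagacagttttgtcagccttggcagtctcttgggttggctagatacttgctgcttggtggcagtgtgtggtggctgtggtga
Hp upstream: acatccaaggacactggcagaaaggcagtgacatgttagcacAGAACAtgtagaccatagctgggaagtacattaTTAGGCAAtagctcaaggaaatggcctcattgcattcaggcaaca
Saa1 promoter: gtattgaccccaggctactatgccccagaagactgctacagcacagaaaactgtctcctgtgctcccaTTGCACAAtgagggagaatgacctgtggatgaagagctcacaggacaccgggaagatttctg
Saa2 promoter: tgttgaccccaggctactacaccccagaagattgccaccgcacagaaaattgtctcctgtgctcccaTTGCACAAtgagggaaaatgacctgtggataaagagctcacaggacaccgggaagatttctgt

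Over 250 bases before the start the Saa promoters differ by 13 single-base edits. The authors removed reads that map to several places, so peaks in stretches that the Saa, Orm or Hamp copies share are uncertain, and a missing peak there cannot be told apart from sequence that reads could not be mapped to.

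Across the 77 sites, C/EBP letters were the most frequent of 7 motifs searched on both strands in 200 bp centred on the highest summit. They occurred at 24 member sites, or 31.2%, against 15.0% of all sites. Most of the 24 lay at the Orm and Saa loci, where gene copies share sequence, so these matches are not independent of each other. The Orm locus had the most. STAT letters occurred at 7 member sites (8.15% of all sites), the NF-kB letters, GGGA and CC with 4 free bases between them, at 10 (10.6%), the FOX letters TGTTTAC at 3 (5.17%) and the HNF4 letters CAAAGTCCA at 2 (1.47%). The GR half-site AGAACA occurred at 11 member sites (18.4%). The full palindromic GR element, GNACA and TGTNC with 3 free bases between them, can contain that half-site. It occurred at 0 of 77 member sites and at 1.89% of all sites. When windows were placed on the centre of the merged site in place of the summit, C/EBP letters were found at 8 member sites, against 13.3% of all sites, so their number depended on the summit position.

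**Figure D1:**
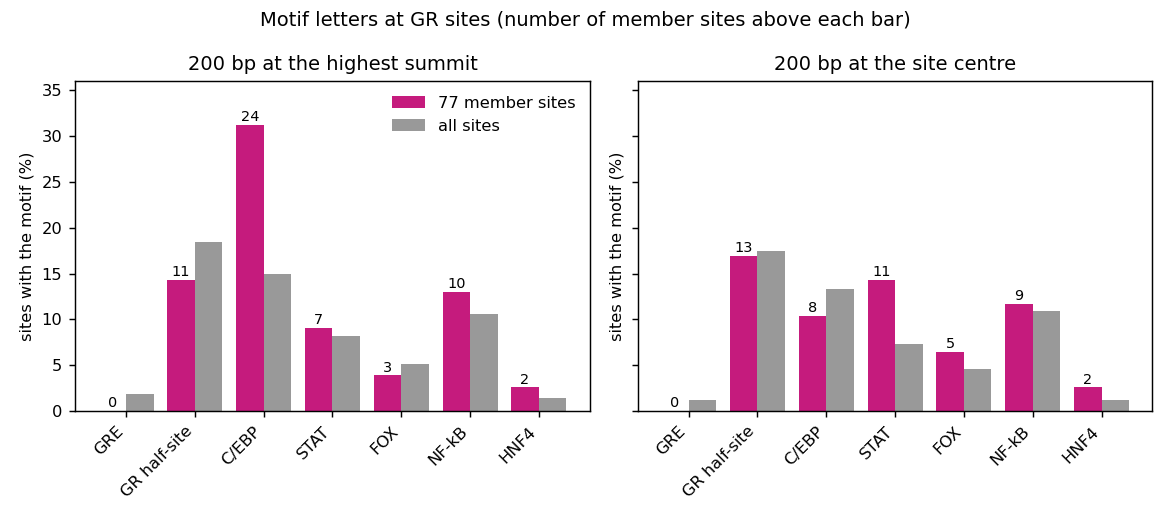
Share of GR sites (%) that hold each of 7 motifs in 200 bp, for the 77 member sites (magenta, with the number of sites above the bar) and all sites (grey), around the highest summit (left) and around the site centre (right). C/EBP letters stood at 31.2% of member sites against 15.0% of all sites at summits, but at 10.4% against 13.3% at centres.

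Among promoters in RefSeq's table, 8 of the 10 members matched, and Orm1 and Hp had no entry. C/EBP letters stood within 250 bases before the start in Saa1, Saa2, Orm2, Hpx and Lcn2, and in 9.56% of 32851 promoters. STAT letters stood in Apcs and Hamp (7.02% of promoters), and the GR half-site in Apcs, Crp and Orm2 (16.1%). A match of letters is a description and does not show that a factor was bound.

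The 77 sites were spread unevenly. Hamp had 17 sites, the Saa pair 12, Lcn2 11, the Orm pair 10, Hp 8, Crp 7, and Apcs and Hpx 6 each. Peaks were present at 51 and 34 of the 77 for ctrl. 1 and 2, at 42 and 37 for cal. res., and at 53 and 72 for CORT. Of all sites, 67.6% and 22.3% had a peak in ctrl. 1 and 2, 40.3% and 33.7% in cal. res. 1 and 2, and 53.8% and 73.6% in CORT 1 and 2. CORT 2 alone accounted for 16 member sites (16.9% of all sites) of the 21 seen in a single library (37.4%). In whole tissue, binding in more cells and more binding per cell cannot be told apart.

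A site counted as held by a group only if each of the 2 libraries had a peak at it. The ctrl. group held 32 member sites (21.4% of all sites were held by ctrl.), cal. res. held 35 (27.9%) and CORT held 50 (43.7%). All 3 groups held 27 of them, against 15.7% of all sites. No member site was held by cal. res. without CORT (3.04% of all sites), whereas 15 were held by CORT without cal. res. (18.8%), 8 of them with no cal. res. peak at all (9.72%). Each of the 10 genes had at least 1 site held by ctrl. (48.5% of protein-coding genes), by cal. res. (47.2%), by CORT (60.9%) and with FOXO1 (31.2%). Hamp, with 9 ctrl. sites, was matched or exceeded by 0.301% of protein-coding genes. Apcs had 1 ctrl. site, which 48.5% of genes matched or exceeded.

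Of the sites held by ctrl., 5 were not held by cal. res. (4.99% of all sites) and 1 not by CORT (2.05%), a site at -33.46 kb from Hpx that was among both. The strongest of the 5, at -7.99 kb from Hp, ranked at 94.2 and 55.9 in ctrl., 77.7 in cal. res. 1, and 91.3 and 98.8 in CORT, with no peak in cal. res. 2. Strength is given here and throughout as the within-list percentile, the share of peaks of the same list with a fold enrichment at or below that of the best peak of the site. Longer lists give a site of equal rank a higher percentile, which affects every comparison of percentiles between libraries. Of the 8097 sites with a peak in all 6 libraries, 73.3% were higher in CORT than in ctrl. on this measure. For cal. res., 47.3% were higher than in ctrl. and 27.9% higher than in CORT. Of the 5, the site at -8.97 kb from Hamp was the 1 with no peak in either cal. res. library.

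Gains over ctrl. were sites held by a treated group and not by ctrl. There were 19 gains in CORT (24.3% of all sites) and 8 in cal. res. (11.5%), numbers that lie near the share over all sites. At least 1 such gain lay near 10 members for CORT (48.9% of genes) and near 8 for cal. res. (27.1%). The 8 cal. res. gains were all among the 19 CORT gains. A peak of ctrl. 1 was present at 13 of the CORT gains and at 7 of the cal. res. gains, so most of them rested on the short list of ctrl. 2. Without ctrl. 2 there were 6 CORT gains and 1 cal. res. gain. Without CORT 1 or CORT 2 there were 40 and 41 CORT gains, since 1 library then sufficed to hold a site. Against the ctrl. library of the same series, there were 7 gains in cal. res. and 6 in CORT.

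With no peak in either ctrl. library, CORT held 5 member sites (4.28% of all sites) and cal. res. held 0 (0.842%). Their percentiles in CORT ran from 3.2 to 93.2. The site 4.56 kb after the Orm1 start, at chr4:63347778-63350470, stood at the 78.7th and 93.2nd percentile in CORT 1 and 2, the highest of the 5. The site 18.54 kb after the Saa1 start, between Saa3 and Saa4, stood at 39.6 and 74.0, and the site 7.55 kb after the Hp start, in an intron of Txnl4b, at 21.2 and 40.4. Near Apcs, the site at -36.55 kb stood at 3.2 and 45.8. The other, at -37.38 kb, stood at 85.3 and 45.6 and also had a peak in cal. res. 1, at 54.6, and a FOXO1 region at the 80.0th percentile of its list.

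Signal at the members was strong within each list. The median percentile over member sites with a peak was 74.0 and 72.6 in ctrl. 1 and 2, 65.1 and 69.2 for cal. res., and 80.1 and 79.7 for CORT, while the median over all sites lay between 50.1 and 52.3. Wide sites hold several summits and the best was used, which raises the percentile of wide sites.

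**Figure D2:**
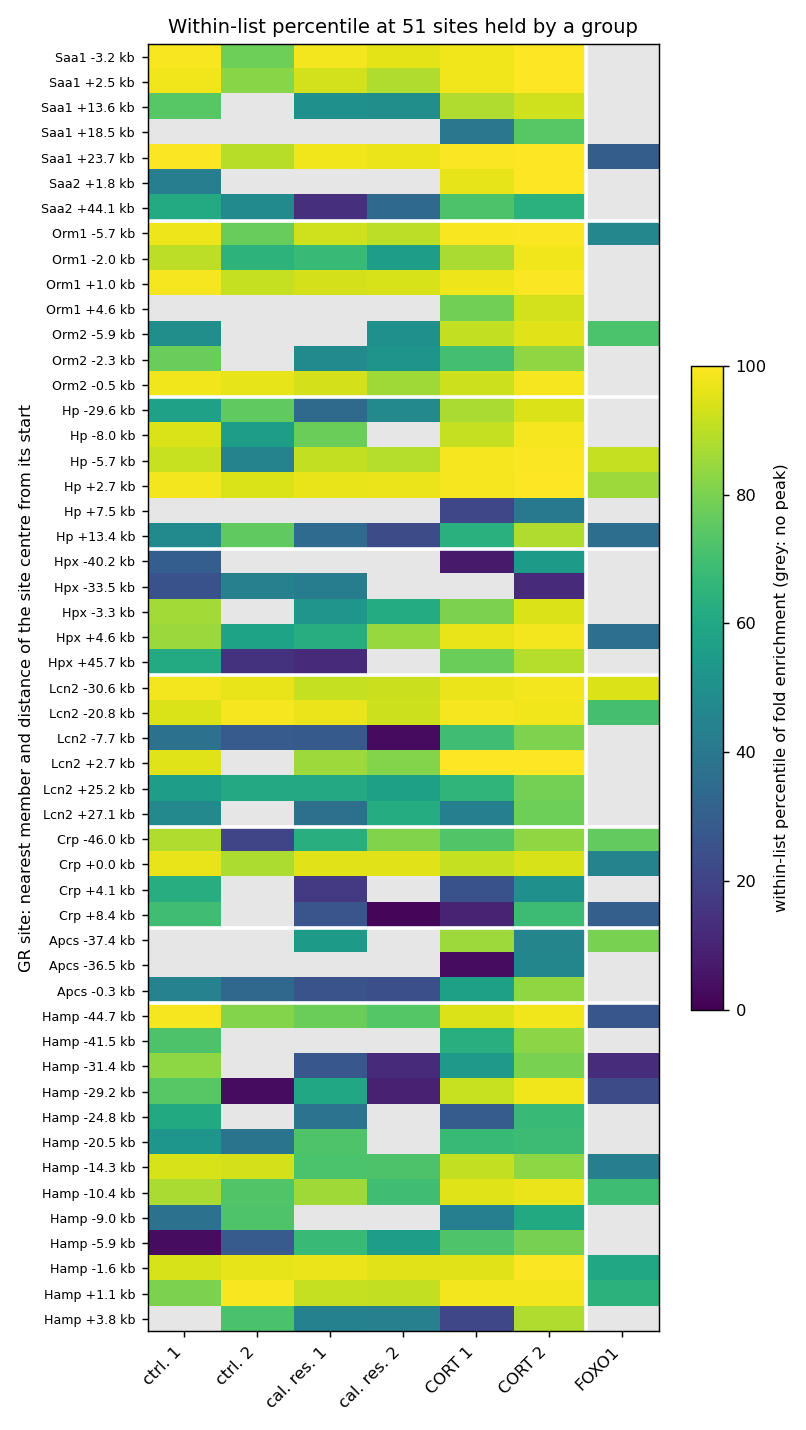
Within-list percentile of fold enrichment (colour, 0 to 100) at the 51 member sites held by at least 1 group, for the 6 GR libraries and the FOXO1 list; grey marks no peak. Rows are ordered by locus and by distance of the site centre from the gene start (kb). The Saa2 gene body stands at 96.1 and 99.8 in CORT 1 and 2, at 42.9 in ctrl. 1 and has no peak in the other 3 libraries.

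The Saa genes lie head to head on chromosome 7, Saa1 at chr7:46740497-46742980 on the minus strand and Saa2 at chr7:46751790-46754313 on the plus strand. The site over Saa1, at chr7:46737050-46744013, ranked at 97.9 and 82.2 in ctrl., 93.3 and 87.9 under cal. res. and 97.9 and 99.9 under CORT. Peaks there added up to 1818 and 1241 bp in ctrl., 959 and 1883 bp under cal. res. and 4962 and 6964 bp under CORT. The percentile was high in every library, but the peaks were wider in both CORT libraries than in the other 4. The site over Saa2, at chr7:46751118-46756005, ranked at 42.9 in ctrl. 1 with 458 bp, had no peak in ctrl. 2 or in cal. res., and ranked at 96.1 and 99.8 in CORT with 2037 and 4888 bp.

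Between the pair, the site with the Saa1 upstream window, at -3.24 kb from Saa1 at chr7:46744327-46748110, was present in all 6 libraries. It ranked at 98.9 and 78.1 in ctrl., 98.2 and 95.9 under cal. res. and 97.8 and 99.8 under CORT. The strongest site of the locus, at chr7:46717718-46720853 between Saa3 and Saa4, ranked at 99.5 and 89.4 in ctrl., 97.8 and 96.9 under cal. res. and 99.4 and 99.8 under CORT. It held the FOXO1 region of the locus, at the 29.6th percentile of the FOXO1 list. All groups overlapped at the first site, whereas at the second both CORT libraries stood above both cal. res. libraries and ctrl. overlapped the rest.

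Orm1 (chr4:63344560-63348163) and Orm2 (chr4:63362449-63365878) lie in tandem on the plus strand of chromosome 4, with Orm3 between them. The promoter site of Orm1, at chr4:63343439-63347664, ranked at 98.6 and 91.1 in ctrl., 93.5 and 93.9 under cal. res. and 97.5 and 99.4 under CORT. That of Orm2, at chr4:63361091-63362740, ranked at 97.7 and 96.1 in ctrl., 93.4 and 85.9 under cal. res. and 92.2 and 98.6 under CORT. CORT and ctrl. overlapped at both promoters. Both cal. res. libraries lay below both CORT libraries at Orm1 and below both ctrl. libraries at Orm2. A site at -5.74 kb from Orm1 with a FOXO1 region at the 46.1st percentile ranked at 97.6 and 76.7 in ctrl., 92.7 and 90.2 under cal. res. and 99.1 and 99.6 under CORT, and there both CORT libraries stood above the other 4. A second FOXO1 region, at the 71.8th percentile, lay at Orm3, where GR ranked at 49.4 in ctrl. 1 and at 90.8 and 95.5 in CORT. That site also had a peak in cal. res. 2, and none in ctrl. 2 or cal. res. 1.

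Hp is at chr8:109575128-109579172 on the minus strand. The site over the gene, at chr8:109572385-109580607, ranked at 98.4 and 94.5 in ctrl., 96.7 and 97.1 under cal. res. and 98.8 and 99.7 under CORT. A single region of 7610 bp in CORT 1 and of 8223 bp in CORT 2 spanned the whole gene, as wide a region as 0.0645% and 0.0843% of their lists. The widest regions on the gene elsewhere were 1492 and 534 bp in ctrl. and 441 and 1364 bp in cal. res. A FOXO1 region at the 85.5th percentile, at chr8:109578957-109579374, sat on the Hp start. The upstream site whose window is shown, at chr8:109583445-109586374, carried FOXO1 regions at the 91.4th and 42.4th percentile. It ranked at 91.7 and 44.7 in ctrl., 91.0 and 89.0 under cal. res. and 98.5 and 99.5 under CORT, so that both CORT libraries were above the others and ctrl. 2 was far below.

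Hpx encodes hemopexin, the plasma protein that binds free heme, and is at chr7:105591613-105600137 on the minus strand. Its gene-body site, at chr7:105589517-105601626, ranked at 84.8 and 58.0 in ctrl., 62.3 and 84.6 under cal. res. and 96.6 and 98.4 under CORT. Peaks there added up to 1940 and 356 bp in ctrl., 651 and 907 bp under cal. res. and 9928 and 12110 bp under CORT. A FOXO1 region at the 36.4th percentile lay at the Hpx start, at chr7:105600085-105600356. The upstream STAT site ranked at 86.0 in ctrl. 1, had no peak in ctrl. 2, and ranked at 52.3 and 61.4 under cal. res. and 80.1 and 94.8 under CORT.

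Lcn2 encodes lipocalin-2, which binds bacterial siderophores, and is at chr2:32384633-32388252 on the minus strand. The site over the gene, at chr2:32381328-32389707, ranked at 95.3 in ctrl. 1, had no peak in ctrl. 2, and ranked at 85.5 and 81.4 under cal. res. and 99.8 and 99.8 under CORT. Its peaks added up to 1849 bp in ctrl. 1, 730 and 658 bp under cal. res. and 2977 and 8380 bp under CORT. The site at -20.83 kb with STAT letters ranked at 94.4 and 98.6 in ctrl., 97.2 and 92.3 under cal. res. and 98.6 and 97.8 under CORT, so that CORT stood above cal. res. and ctrl. overlapped both. A site in an intron of Slc25a25, at -30.56 kb from Lcn2, ranked at 98.4 and 96.5 in ctrl., 91.4 and 91.8 under cal. res. and 97.0 and 98.1 under CORT, with cal. res. lowest. It held the strongest FOXO1 region near any member, at the 94.7th percentile. The 1 FOXO1 region of the 25 with no GR peak lay at -16.67 kb from Lcn2, at the 83.9th percentile.

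Crp and Apcs encode the pentraxins C-reactive protein and serum amyloid P, which bind phosphocholine and debris, and both are on chromosome 1, Crp at chr1:172698055-172833031 on the plus strand and Apcs at chr1:172893961-172895041 on the minus strand. The Crp promoter site, at chr1:172697240-172698940, ranked at 96.8 and 87.7 in ctrl., 95.5 and 95.7 under cal. res. and 91.4 and 93.9 under CORT. It overlapped a FOXO1 region at the 44.8th percentile. The second Crp site, at -46.0 kb, ranked at 87.9 and 20.9 in ctrl., 62.9 and 81.2 under cal. res. and 73.0 and 83.4 under CORT. The Apcs promoter site, at chr1:172894746-172895866, ranked at 44.3 and 33.5 in ctrl., 25.6 and 24.5 under cal. res. and 56.7 and 83.4 under CORT, the weakest of the promoter sites described here. CORT stood above the other 4 libraries at Apcs. At the Crp promoter both cal. res. libraries stood above both CORT libraries, and ctrl. overlapped both.

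Hamp is at chr7:30942368-30944032 on the minus strand, beside Usf2 and Lsr. Its promoter and gene-body site, at chr7:30941140-30944634, ranked at 80.1 and 99.2 in ctrl., 91.2 and 91.0 under cal. res. and 98.1 and 98.3 under CORT. Peaks there added up to 805 and 3340 bp in ctrl., 495 and 892 bp under cal. res. and 2882 and 3485 bp under CORT, so ctrl. 2, the shortest list, resembled the CORT libraries here and not ctrl. 1. The site at -1.65 kb, at chr7:30945241-30946130 in a UTR of Usf2, ranked at 94.1 and 96.1 in ctrl., 96.9 and 95.6 under cal. res. and 95.6 and 99.3 under CORT. Both sites carried FOXO1 regions, at the 64.1st and 59.8th percentile. In all, 7 Hamp sites overlapped FOXO1, a number that 0.237% of protein-coding genes matched or exceeded.

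**Figure D3:**
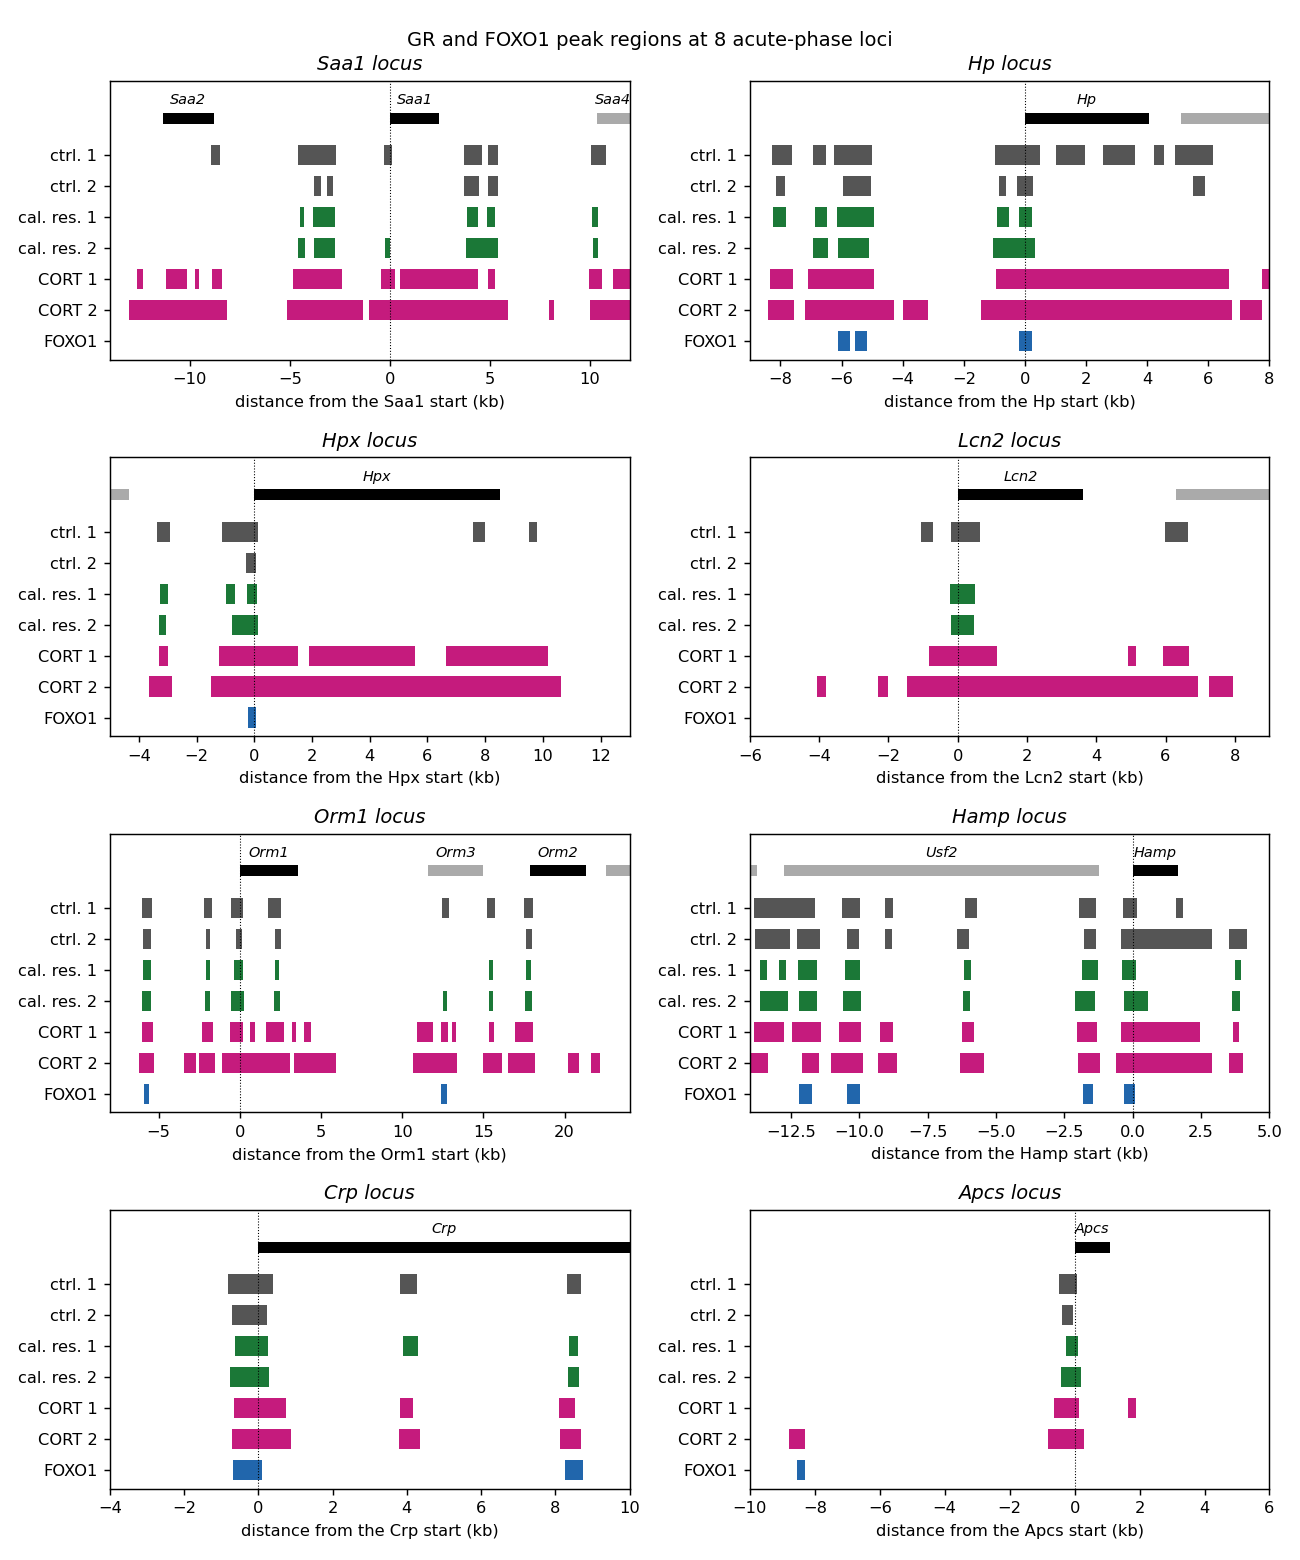
GR peak regions of the 6 libraries and FOXO1 regions (rows) at the 8 loci, by distance from the gene start (kb, positive in the direction of transcription); black bars are members and grey bars other genes. Regions of CORT 1 and CORT 2 run across most of Saa1, Hp and Hpx. In the other 4 libraries peaks cover at most 4.5% of Saa1 and 6.4% of Hpx, and of Hp 62.1% in ctrl. 1 and at most 7.9% in the rest.

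FOXO1 regions overlapped 21 of the 77 member sites, against 13.9% of all sites. Every locus had at least 1. Among sites held by all 3 groups, 16 of 27 overlapped FOXO1, against 50.7% of all such sites. The 5 other overlapping sites lay at Orm3, at 8.41 kb from Crp, at -31.4 kb from Hamp, and at -8.55 and -37.38 kb from Apcs. Neither of these Apcs sites had a peak in ctrl., and the first had one in CORT 2 only.

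The remaining Hamp sites with FOXO1 lay in Usf2, Lsr and Fam187b. In an intron of Usf2, at -10.45 kb (FOXO1 percentile 69.0), GR ranked at 87.4 and 72.8 in ctrl., 85.9 and 69.2 under cal. res. and 95.2 and 97.0 under CORT. The site at the Lsr start, at -29.2 kb (FOXO1 percentile 23.4), ranked at 74.0 and 3.4 in ctrl., 59.5 and 9.1 under cal. res. and 91.5 and 97.8 under CORT. At both, the CORT libraries stood above the other 4, and at Lsr the libraries within ctrl. and within cal. res. lay far apart. At -14.34 kb the order was not the same, with 94.0 and 93.6 in ctrl., 71.8 and 72.1 under cal. res. and 91.0 and 83.0 under CORT, so that both cal. res. libraries were the lowest. At -44.69 kb cal. res. was again lowest, with 98.6 and 81.3 in ctrl., 77.7 and 73.6 under cal. res. and 94.9 and 97.8 under CORT. At -31.4 kb GR ranked at 83.0 in ctrl. 1 with no peak in ctrl. 2, and the CORT libraries, at 54.0 and 79.9, stood above those of cal. res., at 27.0 and 12.4. The site at 13.38 kb from Hp, in a UTR of Dhx38, ranked at 47.5 and 75.7 in ctrl., 34.8 and 22.7 under cal. res. and 63.6 and 88.2 under CORT, with cal. res. lowest. At 8.41 kb from Crp the ranks ran from 1.6 to 69.5 with no peak in ctrl. 2, and the groups overlapped. FOXO1 in ctrl. or CORT was not analysed here.

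Levels at sites with a peak in all 6 libraries were compared by rank. Fold enrichments were ranked over the 8097 common sites in each library, turned into normal scores (ranks spread as a standard normal variable) and fitted with limma. No site passed an adjusted p of 0.05 in any contrast (Benjamini-Hochberg; 0.0% called in each), and 911 of 8097 sites (11.3%) had an unadjusted p under 0.05 for CORT against ctrl., 800 (9.88%) for cal. res. against ctrl. and 1276 (15.8%) for cal. res. against CORT. The members among them numbered 4, 3 and 10 of 27. Among the 27 member sites, 22 were higher in CORT than in ctrl. (median difference 0.54), against 49.2% of all common sites (median -0.01). With 1 library left out in turn, the number ran from 17 (without ctrl. 1) to 22. The median then ran from 0.30 (without CORT 2) to 0.78 (without CORT 1). For cal. res. against ctrl., 10 of 27 were higher (median -0.12), against 51.1% of all (median 0.02). For cal. res. against CORT, 4 of 27 were higher (median -0.64), against 53.7% of all (median 0.06). The contrasts share libraries.

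The Hp upstream site had the smallest p among the members for CORT against ctrl. Its normal score averaged -0.02 in ctrl., 0.71 in cal. res. and 1.77 in CORT, and the difference of CORT from ctrl. was 1.79 (SE 0.41, limma adjusted p = 0.287). For the Hpx gene-body site the difference was 1.40 (SE 0.42, limma adjusted p = 0.333), and for a site at the Lsr start, at -29.2 kb from Hamp, it was 2.26 (SE 0.60, limma adjusted p = 0.333). The Crp promoter went the other way, at -0.41 (SE 0.34, limma adjusted p = 0.675). None of these differences passed the threshold with 2 libraries a group.

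The width of the peaks was then measured as the share of each gene body covered by the peaks of a library, an analysis added after the widths were seen. For Saa1 the share was 4.5% and 0.0% in ctrl., 0.0% and 1.4% under cal. res. and 89.8% and 100% under CORT. For Saa2 it was 5.3% and 0.0% in ctrl., 0.0% in both cal. res. libraries and 54.0% and 100% in CORT. Both genes were covered over more than 50% of their length in both CORT libraries and hardly at all in the other 4.

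For Hpx the share was 6.4% and 0.9% in ctrl., 1.1% and 1.5% under cal. res. and 82.7% and 100% under CORT. For Hp it was 62.1% and 6.7% in ctrl., 5.7% and 7.9% under cal. res. and 100% in both CORT libraries. For Orm1 it was 28.3% and 12.1% in ctrl., 12.1% and 16.5% under cal. res. and 51.9% and 93.7% under CORT. In these 3 genes the CORT libraries again stood above all others, although ctrl. 1 already covered much of Hp.

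Lcn2 was covered at 17.9% and 0.0% in ctrl., 13.9% and 12.8% under cal. res. and 31.7% and 100% under CORT, so its CORT libraries differed widely. Apcs was covered at 6.0% and 0.0%, 8.5% and 16.9%, and 12.2% and 27.4%, and CORT 1 lay below cal. res. 2 there. Hamp was covered at 14.5% and 100% in ctrl., 7.2% and 34.5% under cal. res. and 100% in both CORT libraries, which overlapped ctrl. Orm2, the near copy of Orm1, was covered at 5.7% and 2.5%, 1.2% and 2.2%, and 4.0% and 27.9%, and CORT 1 lay below ctrl. 1. Crp has a GENCODE span of 134977 bp, far longer than its RefSeq span of 1911 bp. Over the RefSeq span the share was 20.4% and 11.5% in ctrl., 13.7% and 15.4% under cal. res. and 38.5% and 46.3% under CORT. RefSeq spans also moved Saa1, to 11.7% in ctrl. 1, 8.8% in cal. res. 2 and 90.6% in CORT 1, and Lcn2, to 4.4% in ctrl. 1, 0.0% in both cal. res. libraries and 20.5% in CORT 1.

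Both CORT libraries exceeded both ctrl. libraries in 8 of the 10 members, all but Orm2 and Hamp, against 10.5% of all protein-coding genes. At least 50% of the gene was covered in both CORT libraries and under 50% in both ctrl. libraries for 4 members, Saa1, Saa2, Hpx and Orm1, against 0.119% (26 of 21911 genes). Over RefSeq spans these numbers of members were again 8 and 4. Ordered by the lowest CORT share minus the highest ctrl. share, Saa1 was 2nd of 21911 genes at 85.3 points, Hpx 4th at 76.3, Saa2 14th at 48.6, Hp 15th at 37.9 and Orm1 27th at 23.6. In both CORT libraries together, 6 members were covered over at least 50% (0.374% of genes), against 0 in both ctrl. libraries (0.0913%) and 0 in both cal. res. libraries (0.0274%). Both CORT libraries exceeded both cal. res. libraries in 9 members, all but Apcs (30.5%), and no member had both CORT libraries below both ctrl. libraries (1.26%). Both cal. res. libraries exceeded both ctrl. libraries in 1 member, Apcs (0.694% of all genes). Within series B, where ctrl. 1 is the only control, both CORT libraries exceeded it in 9 members, against 10.9% of all genes. CORT 1 covered less of the genome than ctrl. 1. It covered less of a member only at Orm2, and less of 8196 of the 21911 genes. Of the 21911 genes, 12322 had a peak on the gene body in any library, so the shares over all genes include genes with none. The share also depends on gene length, and all genes were not matched to the members in length. Members other than Crp were 1081 to 8525 bp long. The part of depth, enrichment and fragment length in these widths was not tested.

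**Figure D4:**
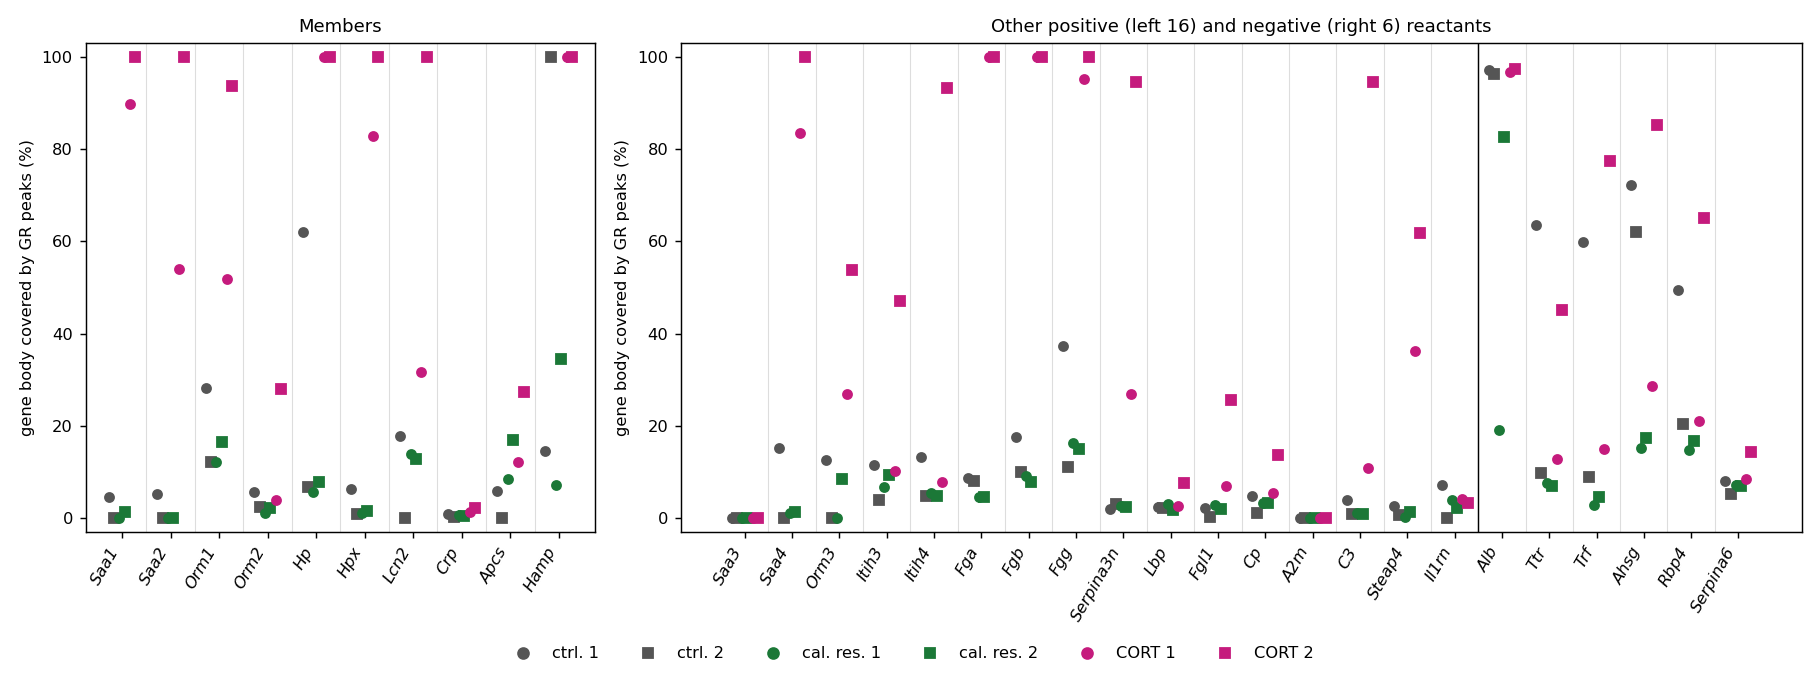
Share of the gene body covered by GR peaks (%) in each library (colour: group; circle and square: replicates 1 and 2) for the 10 members (left) and for 16 other positive and 6 negative reactants (right). Over GENCODE spans, Saa1 stands at 89.8 and 100 in CORT and at most at 4.5 elsewhere. Ttr stands at 63.5 and 9.9 in ctrl. and at 12.8 and 45.1 in CORT, and is the 1 negative reactant with both CORT libraries below ctrl. 1.

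The shares were fitted with limma after an arcsine square-root transform, over 2322 genes with a mean share of at least 5%, which Crp did not reach. For CORT against ctrl. 4 genes passed, all higher in CORT (0.172%), none lower, and 126 (5.43%) had an unadjusted p under 0.05. Of the 2322 genes 88.8% were higher in CORT, with a median of 0.10, so differences are best read against that shift. Without ctrl. 2 the share was 53.5% and the median 0.01. With series as a term, 2 genes passed as higher in CORT and 4 as lower, so the direction of the calls was not the same in each fit.

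Saa1, Saa2, Hpx and Orm2 averaged 1.5%, 1.3%, 2.5% and 2.9% over the ctrl. and cal. res. libraries and reached the minimum of 5% only through CORT, the group in which they are wide. Their differences are therefore given as a description, and their p-values support nothing. Saa1 was the 1 member among the 4 genes, with a difference of 1.30 (SE 0.14, limma adjusted p = 0.0499). It fell short of the threshold under 10 of 12 alternatives, among them the loss of any 1 of the 6 libraries, with adjusted p between 0.0237 and 0.403 and differences between 1.14 and 1.46. Over all 12322 genes with any peak its adjusted p was 0.177 (limma). With the minimum set on ctrl. and cal. res. alone, 3 genes passed. Saa1, Saa2, Hpx, Orm2 and Crp did not reach that minimum, so they were not in the fit and could not pass. Orm1, Hp, Lcn2, Apcs and Hamp were in it and did not pass.

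Hpx differed by 1.18 (SE 0.15, limma adjusted p = 0.112), Hp by 0.99 (SE 0.20, adjusted p = 0.258) and Saa2 by 1.08 (SE 0.24, adjusted p = 0.317), and none passed. For cal. res. against ctrl. no gene passed (limma, 0.0% called; 117 had an unadjusted p under 0.05, 5.04%), and the difference for Saa1 was -0.05 (SE 0.14). For cal. res. against CORT 5 genes passed, all lower in cal. res. (0.215%; 411, or 17.7%, had an unadjusted p under 0.05), and Saa1, with the same limit, was among them at -1.35 (SE 0.14, limma adjusted p = 0.0324, and 0.115 over all genes with any peak). That contrast is also one between library series, and with series as a term 0 genes passed.

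Other reactants were examined as counts. Among 16 other positive reactants, both CORT libraries exceeded both ctrl. libraries in 11, against 10.5% of all genes. None had both CORT libraries below both ctrl. libraries, against 1.26% of all genes. Fga, the fibrinogen alpha chain, was first of all 21911 genes, at 8.8% and 8.1% in ctrl., 4.6% in both cal. res. libraries and 100% in both CORT libraries (difference of CORT from ctrl. 1.28, SE 0.08, limma adjusted p = 0.00717). Fgb, the beta chain, was the third, covered at no more than 17.5% in ctrl. and cal. res. and at 100% in both CORT libraries (1.19, SE 0.08, limma adjusted p = 0.00847). Both calls were lost without either cal. res. or either CORT library (adjusted p up to 0.236). Fgg was at 37.4% and 11.1% in ctrl. and 95.1% and 100% in CORT, and Saa4 at 15.2% and 0.0% in ctrl. and 83.4% and 100% in CORT. Saa3 and A2m had no peak on the gene body in any library.

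Among 6 negative reactants, both CORT libraries exceeded both ctrl. libraries in 1 (10.5% of all genes), Serpina6, which encodes corticosteroid-binding globulin. Both cal. res. libraries lay below both ctrl. libraries in 5 of the 6, all but Serpina6, against 8.45% of all genes. Ttr (transthyretin) was covered at 63.5% and 9.9% in ctrl., 7.6% and 7.0% under cal. res. and 12.8% and 45.1% under CORT. Alb (albumin) was covered at 97.1% and 96.3% in ctrl., 19.2% and 82.6% under cal. res. and 96.7% and 97.3% under CORT. CORT 1 covered more than ctrl. 1 in 9 of 10 members and less in 5 of 6 negative reactants. CORT 2 did not share this contrast, as it covered less than ctrl. 1 in 0 members and in 1 negative reactant, Ttr. These differences between the lists were not tested. The cal. res. lists are shorter than that of ctrl. 1 and longer than that of ctrl. 2, and the part of list length was not tested.

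Of 10 regulators of the response, both CORT libraries exceeded both ctrl. libraries in 2 (10.5% of all genes), Il1r1 and Osmr, which are receptor genes. Il1r1 was covered at no more than 3.1% in ctrl. and at no less than 8.7% in CORT, and Osmr at no more than 0.8% in any library. Cebpb, which encodes a C/EBP factor, was the 1 regulator with the reverse order (1.26% of all genes). It was covered at 73.7% and 72.5% in ctrl., 18.2% and 9.2% under cal. res. and 30.7% and 47.2% under CORT.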

How the data were processed

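The data were peak lists from mouse liver ChIP-seq, 6 for GR (2 each of ctrl., cal. res. and CORT) and 1 for FOXO1. Samples were grouped by their titles. The methods call the 2 libraries of a group biological replicates, and p-values rest on the spread between them. Members and gene lists were chosen with earlier results of these data known.

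Per the methods, the authors used BWA with mm10, kept unique and uniquely mapped reads, ran MACS2 on read pairs and removed blacklisted regions with bedtools. Fold enrichment, as deposited, is the ratio of pileup at the summit over background around it, and compares peaks of 1 list only. The p-value and q-value of each peak were deposited as −log10. The largest q in each GR list lay between 0.0994 and 0.0998, and it was 9.84e-06 for FOXO1. Whether input served as control is not given in the sources used here. Read counts and depth were not analysed here.

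Peaks sharing at least 1 bp were merged. Gene starts and spans came from GENCODE M21, and a group held a site through both libraries. All 51428 sites on chromosomes 1 to 19, X and Y lay inside the reference, whose chromosome 1 is 195471971 bp long, as in mm10. Ranks and gene-body shares were fitted with limma 3.58.1 (R 4.3.3) with group as the only term, after tests on simulated data. Sequences were read from the GRCm38 genome and RefSeq's promoter table. Per-library values were given for the 2 top sites of each locus by mean percentile, for sites held by CORT or cal. res. with no ctrl. peak, for sites with FOXO1 and for called sites, of which there were none. Sites at Orm3, Lsr and on gene bodies that are named beside these were chosen after their values were seen. Alternatives were q of at most 0.01 or 1e-05, 12458 regions per list, 50% overlap, windows of 25 and 100 kb, either library, the ctrl. library of the same series, summits within 100 bp, the stronger 50% of FOXO1 peaks, other rank measures, the replicate number or series as a term, motif windows of 100 and 400 bp or at the centre, and leaving out each library. Those of the gene-body share, RefSeq spans and other minimums included, were added after seeing the data. Python 3.11.15, pandas 2.3.3 and pysam 0.24.0 were used.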

Additional observations from a re-analysis of the deposited data

How the results depend on the processing

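Member sites held by ctrl. numbered 20 at a q of at most 1e-05, 21 with 12458 regions per list and 53 when either library sufficed, against 32. Gains in cal. res. numbered 14 in a 100 kb window and 1 when either library sufficed, against 8, and gains in CORT numbered 6 against the ctrl. library of the same series, against 19. With the stronger 50% of FOXO1 peaks, 10 sites overlapped, against 21. Without 1 library in turn, sites held ranged from 32 to 51 (ctrl.), 35 to 42 (cal. res.) and 50 to 76 (CORT), gains from 1 to 11 (cal. res.) and 6 to 41 (CORT), and FOXO1 overlaps from 21 to 22.

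Median percentiles were 76.3, 71.6 and 80.3 (ctrl., cal. res., CORT) with 12458 regions per list, and 79.3 in CORT over distinct regions, against means of the 2 libraries of 73.3, 67.2 and 79.9. From single libraries they ran from 72.6 to 74.0, 65.1 to 69.2 and 79.7 to 80.1.

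In 100 bp windows the half-site stood at 6 member sites, FOX letters at 0 and NF-kB letters at 6. In 400 bp windows there were 1 GR palindrome, 26 half-sites, 12 STAT, 6 FOX and 18 NF-kB matches. At site centres there were 8 C/EBP, 11 STAT and 5 FOX matches. Without 1 library in turn the counts were 8 to 13 for the half-site, 19 to 25 for C/EBP, 6 to 8 for STAT, 2 to 3 for FOX, 10 for NF-kB, 1 to 2 for HNF4 and 0 for the palindrome.

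Only median-centred log2 fold enrichment gave calls in the rank comparison, 5 for cal. res. against ctrl., 13 for CORT against ctrl. and 239 for cal. res. against CORT. One member site was among the 239, at -29.2 kb from Hamp. With normal scores of ranks, leaving out any library gave 0 in every contrast. The log2 setting was not fitted again without a library.

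For gene-body shares, calls for CORT against ctrl. numbered 2 at a q of at most 0.01, and 0 to 6 without 1 library. Calls for cal. res. against CORT numbered 31 with equal regions, 0 with series as a term and 0 to 65 without 1 library. Calls for cal. res. against ctrl. ran from 0 to 6. Members with both CORT above both ctrl. libraries numbered 8 to 9 without 1 library. Members at least 50% covered in both CORT and under 50% in both ctrl. libraries numbered 2 with equal regions and 4 to 5 without 1 library, and such genes in all numbered 17 and 26 to 130. Hp passed for CORT against ctrl. with equal regions (adjusted p = 0.00295, limma) and without ctrl. 1 (0.0324).

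Same-numbered libraries did not deviate together (correlations of -0.0966, -0.123 and 0.1), so the numbers do not pair the samples. With the replicate block, 0 sites were called in each rank contrast, and the gene-body calls were 3 for CORT against ctrl., 0 for cal. res. against ctrl. and 6 for cal. res. against CORT. The causes of these changes were not tested.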

Other observations

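The order of all genes by gene-body share held genes outside the acute-phase lists, and these were named after their values were seen. Phlda1 was covered at 36.4% and 43.1% in ctrl., 23.1% and 18.4% under cal. res. and 100% in both CORT libraries, and it passed for CORT against ctrl. (difference 0.89, SE 0.08, limma adjusted p = 0.0271). Clec2d was the 1 gene called for cal. res. against CORT that was not called for CORT against ctrl., at 74.0% and 71.8% in ctrl., 2.9% and 4.5% under cal. res. and 88.9% and 100% under CORT. Mat1a and Bhmt, enzymes of methionine metabolism, stood at 89.4% and 93.2% and at 62.9% and 94.9% in CORT, against at most 34.7% and 9.5% in ctrl. Neither passed the test.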
